A study of Danio rerio with 6 samples.

Results

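Bone morphogenetic proteins (BMPs) are secreted growth factors of the TGF-beta superfamily, and the 10 genes described here encode BMP ligands in the zebrafish heart. They are *BMP10*, *bmp10*, *bmp2a*, *bmp2b*, *bmp4*, *bmp16*, *bmp5*, *bmp6*, *bmp7a* and *bmp7b*. They were chosen by symbol, matched with case, from the 31701 genes of the authors' table, so that *BMP10* and *bmp10* are separate rows. All 10 reached a normalised read count of 10 or more in 3 or more libraries and so were among the 18901 genes tested.

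The libraries came from whole hearts dissected by hand from zebrafish at 57 to 59 hours post fertilization. The groups are animals labelled mutant and their wild-type siblings (WT). The mutated gene is taken from the series title, which is about Wwtr1 (Taz), a coactivator of transcription that the Hippo kinases hold in check, and the sources used here do not name the allele or the strain. There were 3 biological replicates per group with 23 hearts pooled in each, so a value is an average over the animals of its pool. Transcripts of *wwtr1* stood at 128, 151 and 100 in mutant replicates 1 to 3 and at 362, 416 and 471 in WT replicates 1 to 3.

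BMP ligands are made as precursors that furin-type proteases cut into a mature dimer. The dimer binds type I and type II serine/threonine kinase receptors, which phosphorylate Smad1, Smad5 and Smad9. With Smad4 these enter the nucleus and act on genes such as the Id genes, while Smad6 and Smad7 feed back as inhibitors. In the embryonic heart BMP signals are known for their part in cardiac specification, in the atrioventricular canal and valves, and, for BMP10 in the mouse, in growth of the trabeculated ventricular wall.

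The values are read counts per gene that the authors scaled between libraries and rounded. They are not divided by transcript length, so each gene is compared with itself across libraries and not with the other ligands. Totals ranged from 19187058 to 25227868 per library, and WT replicate 2 had the highest total and the highest share of ribosomal RNA features, at 43.9% against 40.4% to 41.4% in the other 5 libraries. The difference between mutant and WT hearts was tested for every gene by limma on log2(value + 1), with Benjamini-Hochberg adjustment over all 18901 genes. An adjusted p under 0.05 is a call, and a log2 change is the mutant mean minus the WT mean on that scale. For low genes it depends on the number added and on single libraries at or near 0. The log2 change of *bmp2a* was -1.92 with 0.5 added, -1.58 with 1 and -0.83 with 5.

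**Figure D1:**
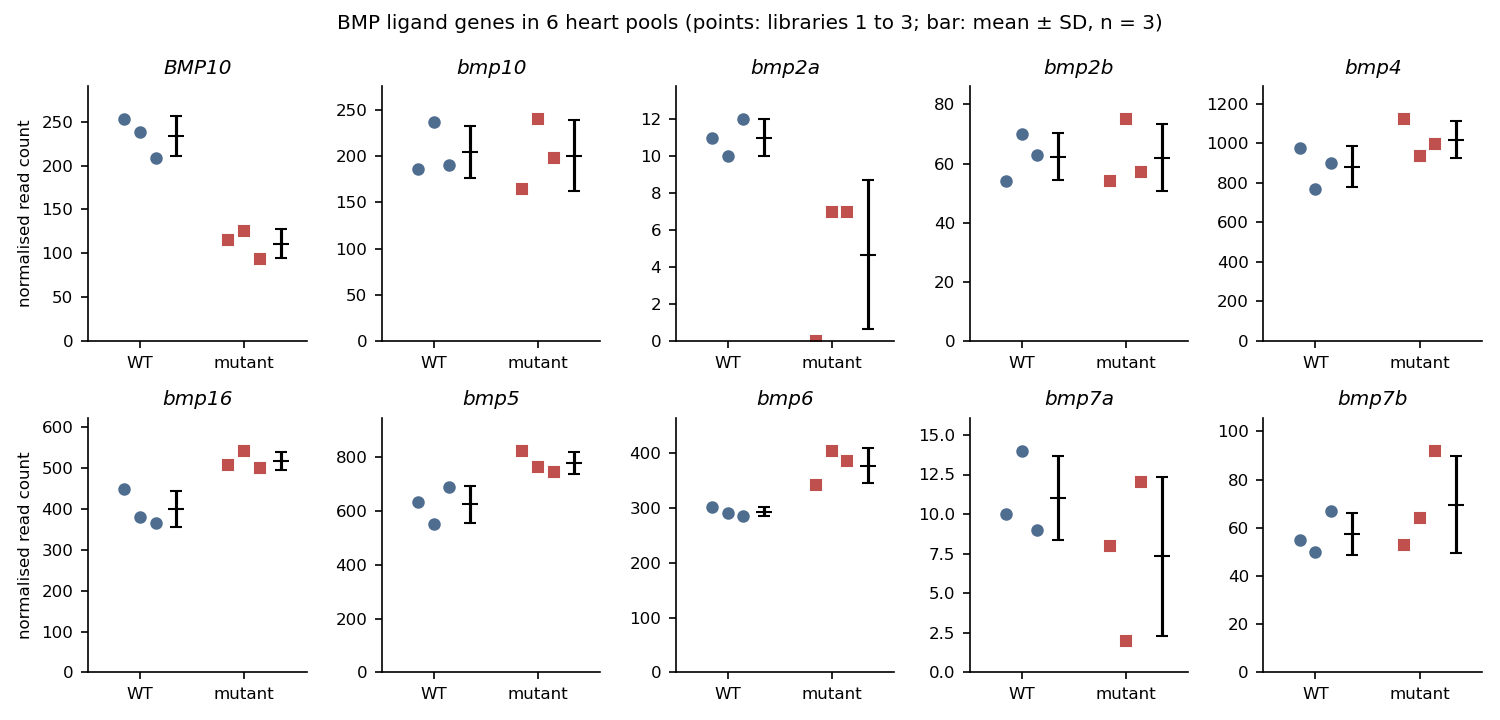
Normalised read counts of the 10 BMP ligand genes, 1 panel per gene with its own vertical axis from 0. Points are libraries (circles, WT; squares, mutant) and the bar beside them is the mean ± SD of 3 libraries. The 3 mutant values of *BMP10* (93 to 125) lie below the 3 WT values (209 to 253), and those of *bmp16*, *bmp5* and *bmp6* lie above theirs.

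Of the 10 ligand genes 1 was called, *BMP10*, which fell in mutant hearts. Earlier results of these data had already called *BMP10*, so its call here is no independent support. Across all tested genes 0.037% were called, with 0.0265% called lower and 0.0106% called higher. The other 9 ligands did not pass, with adjusted p-values from 0.398 to 0.996. Of the 10 genes, 5 had a log2 change above 0 and 5 below, with a median of 0.10 beside 0.00 for all tested genes. In 5 of the 10 the mutant and WT values did not overlap, 3 with every mutant value above every WT value and 2 with every one below. The 2 below were *BMP10*, called before, and *bmp2a*. *bmp2a* reached 10 only in its WT libraries, so its separation follows in part from the choice of genes tested. Among all tested genes the groups did not overlap in 11.1%, with mutant above WT in 5.57% and below in 5.53%. The unadjusted p was under 0.05 for 4 of the 10 ligands and for 6.6% of all tested genes.

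**Figure D2:**
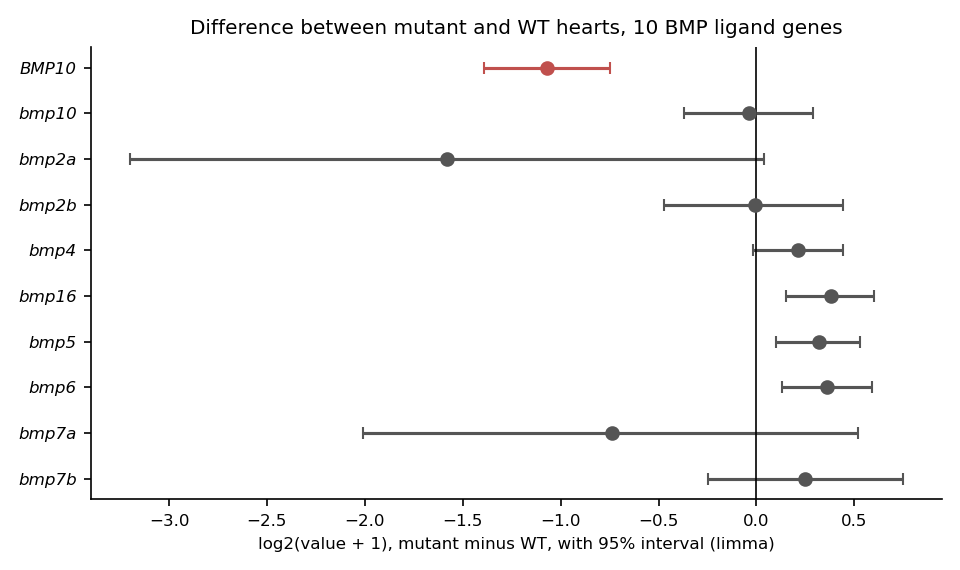
Difference between mutant and WT hearts in log2(value + 1) for each ligand gene (points, 3 against 3 libraries) with its 95% interval from limma (bars). The interval of *BMP10* runs from -1.39 to -0.75, those of *bmp16*, *bmp5* and *bmp6* lie above 0 without passing the adjusted test, and those of *bmp2a* and *bmp7a*, which rest on few reads, are the widest.

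*BMP10* (ENSDARG00000045632) is a protein-coding gene at 561903 to 567303 of chromosome 10 (GRCz10, plus strand). The capitals are those of the deposited table. The table's UniProt column ties this row to the locus LOC571601, which the RefSeq gene table of the GRCz12tu assembly names *bmp10l*, for bmp10-like. Its normalised read counts were 115, 125 and 93 in mutant replicates 1 to 3 and 253, 239 and 209 in WT replicates 1 to 3. Every mutant value was below every WT value, and 84 normalised reads separated the highest mutant library from the lowest WT library. The means were 111 ± 16.4 (SD, n = 3) and 234 ± 22.5 (SD, n = 3), so mutant hearts held 47.5% of the WT value.

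Both SDs were above what read counting alone would give, but an SD of 3 libraries is too rough to show added spread. Taken as the square root of the mean, which is approximate for scaled values, the counting SD would be 10.5 in mutant and 15.3 in WT. The log2 change of *BMP10* was -1.07 with a standard error (SE) of 0.149, and its 95% interval ran from -1.39 to -0.75 (limma, adjusted p = 0.0123). It ranked 6 by p-value among the 18901 genes. The call was lost when mutant replicate 1 was left out (log2 change -1.10, adjusted p = 0.0637), likewise for mutant replicate 3 (-0.95, adjusted p = 0.0627) and for WT replicate 1 (-1.01, adjusted p = 0.0631). It was also lost in a limma fit with no mean-dependent variance trend, where the adjusted p was 0.373.

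*BMP10* transcripts are known from the myocardium in the mouse, so the marker genes of the heart's cell types are given beside it. In bulk samples fewer cells of a type and less RNA per cell cannot be told apart. Of 9 cardiomyocyte markers (such as *myl7*, *tnnt2a* and *vmhc*), 8 were in the table, none was at 0 in every library, and their sum overlapped between groups, from 394335 to 435178 in mutant and from 390487 to 461166 in WT hearts. With each library scaled to that sum, *BMP10* stood at 97.6 to 119 in mutant and 222 to 246 in WT hearts, and its log2 change was -1.05 (limma, adjusted p = 0.0267). Of 5 ventricular markers 4 were in the table, and their sum also overlapped, at 155978 to 174319 in mutant and 158168 to 193114 in WT hearts. Of these 4, 1 had a log2 change above 0 and 3 below, and 2 had an unadjusted p under 0.05 by limma. All 8 endocardial and endothelial markers (such as *cdh5*, *kdrl* and *tie1*) were present, 6 with a log2 change above 0 and 2 below. Of the 8, 3 had an unadjusted p under 0.05 by limma and none was called. Their sum was higher in every mutant library, at 17267 to 18643 against 14857 to 16431. Scaled to that sum, the *BMP10* change was -1.27 (limma, adjusted p = 0.00228), while the median change of all tested genes moved to -0.20. These scalings were added after the data had been seen.

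Within 100 kb of *BMP10* lie 6 genes, of which 4 were tested, and these 4 had log2 changes from 0.06 to 0.77, none with an unadjusted p under 0.05. *rfx3*, 17 kb away, stood at 35, 33 and 46 in mutant and at 25, 27 and 23 in WT hearts. Its groups did not overlap, as in 5.57% of all tested genes with mutant above WT, and its log2 change was 0.57 (limma, unadjusted p = 0.0577). Of the 2 that were too low to be tested, *glis3*, a zinc finger gene 60.5 kb away, stood at 3, 1 and 5 in mutant and at 3, 16 and 13 in WT hearts. The nearest, *smad4a*, which encodes the common partner of the BMP-activated Smads, lies 5.67 kb away on the same strand. *smad4a* stood at 272, 253 and 208 in mutant and at 258, 194 and 252 in WT hearts, and the groups overlapped. Its span, 572970 to 730884, contains those of *rfx3* and *glis3* on the opposite strand. Since the use of strand is not known, reads from shared stretches of these genes cannot be told apart. The neighbours named here were chosen after their values were seen. No gene of the table overlapped any of the 10 ligand genes on either strand.

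The lower-case row *bmp10* (ENSDARG00000061769) is the paralogue, at 20707335 to 20710499 of chromosome 5 (plus strand), and the RefSeq table gives it the synonym *bmp10b*. In zebrafish, Bmp10 is known as a circulating ligand of the endothelial type I receptor Alk1. The row stood at 164, 240 and 198 in mutant and at 186, 237 and 191 in WT hearts. The mutant values spanned the whole WT range. The means were 201 ± 38.1 and 205 ± 28.1 (SD, n = 3), with a 95% interval of the log2 change from -0.37 to 0.29 (limma, adjusted p = 0.986), which covers a mutant level from 0.775 to 1.23 times that of WT.

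Within each library, *BMP10* made up 57.6%, 50.2% and 52.2% of the reads of this pair in WT replicates 1 to 3 and 41.2%, 34.2% and 32% in mutant replicates 1 to 3. The shares are of reads and not of molecules, since the transcript lengths are not used here. The log2 ratio of *BMP10* to *bmp10* was -0.84 ± 0.30 in mutant and 0.19 ± 0.22 in WT hearts (SD, n = 3), a difference of -1.04. The 2-sided exact permutation test gave p = 0.1 over 20 splits, which is the smallest value that 3 against 3 libraries allow. The ratio was lower in every mutant library than in every WT library. *BMP10* had been called before and changed by -1.07, and *bmp10* changed by -0.04. The ratio therefore largely restates the *BMP10* change and is no independent support. The summed reads of the pair, which hold the same *BMP10* values, were 279, 365 and 291 in mutant and 439, 476 and 400 in WT hearts, again without overlap.

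**Figure D3:**
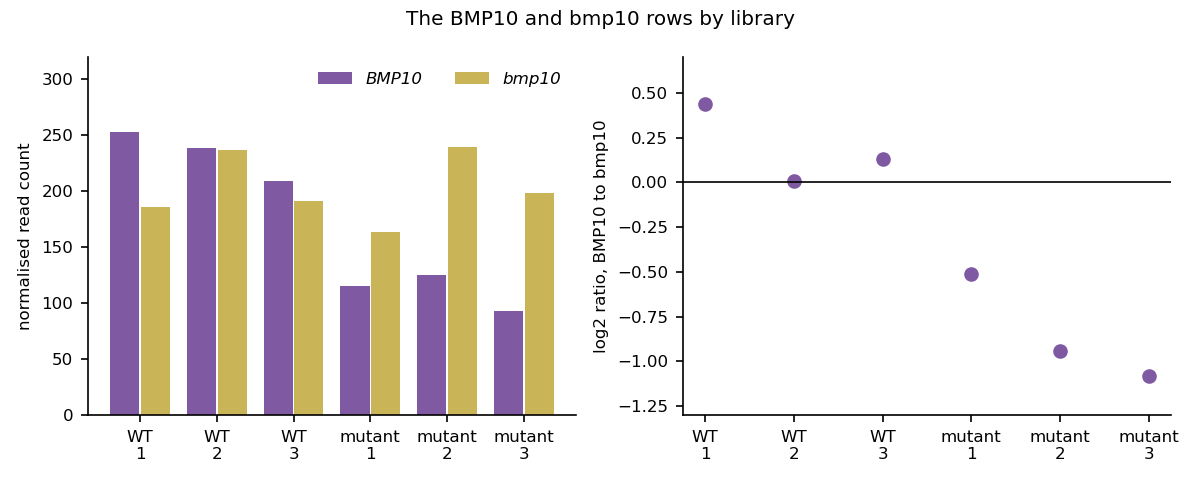
Left, normalised read counts of *BMP10* and *bmp10* in each library (bars, from 0). Right, the log2 ratio of *BMP10* to *bmp10* in the same libraries (points). The ratio runs from 0.01 to 0.44 in the 3 WT libraries and from -1.08 to -0.51 in the 3 mutant libraries.

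The ligands of the Bmp2, Bmp4 and Bmp16 class gave no call. *bmp4* (ENSDARG00000019995, chromosome 17, 50485001 to 50507066), a marker of the zebrafish atrioventricular canal, stood at 1121, 936 and 995 in mutant and at 975, 768 and 900 in WT hearts. The groups overlapped, with mutant replicate 2 below WT replicate 1. Its log2 change was 0.21 (SE 0.105, limma adjusted p = 0.773). *bmp16* (ENSDARG00000103679, chromosome 18, 48798932 to 48814644), a ligand known from fish, stood at 508, 542 and 500 in mutant and at 449, 381 and 366 in WT hearts. Here every mutant value was above every WT value, by at least 51 reads. Means of 517 ± 22.3 and 399 ± 44.2 (SD, n = 3) gave a log2 change of 0.38 (SE 0.106), with an unadjusted p of 0.00295 and an adjusted p of 0.398 by limma.

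The paralogues *bmp2a* and *bmp2b* were read at low depth. *bmp2b* (ENSDARG00000041430, chromosome 20, 45989445 to 45995429), known for ventral patterning of the early zebrafish embryo, stood at 54, 75 and 57 in mutant and at 54, 70 and 63 in WT hearts. The groups overlapped almost fully, and the 95% interval of the log2 change ran from -0.47 to 0.44 (limma, adjusted p = 0.996). *bmp2a* (ENSDARG00000013409, chromosome 17, 4068853 to 4073131) stood at 0, 7 and 7 in mutant and at 11, 10 and 12 in WT hearts. It entered the test only through the 3 WT libraries, each at 10 or more, so that its groups do not overlap follows in part from the filter. Its log2 change of -1.58 had an SE of 0.758 and a 95% interval from -3.20 to 0.04 (limma, adjusted p = 0.755), and at this depth a difference was not detectable.

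The ligands of the Bmp5, Bmp6 and Bmp7 class include the other 2 genes with separate groups. *bmp5* (ENSDARG00000101701, chromosome 13, 1741459 to 1775441), whose mouse counterpart acts with *Bmp7* in heart development, stood at 824, 765 and 744 in mutant and at 634, 553 and 688 in WT hearts. The lowest mutant library was 56 reads above the highest WT library. Means of 778 ± 41.5 and 625 ± 67.9 (SD, n = 3) gave a log2 change of 0.32 (SE 0.101), with an unadjusted p of 0.00662 and an adjusted p of 0.505 by limma. WT replicate 2 was the lowest WT library, and without it the log2 change was 0.23.

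*bmp6* (ENSDARG00000015686, chromosome 24, 7832054 to 7906490), whose mouse counterpart is known for iron sensing in liver endothelium and for cushion formation in the heart, stood at 342, 405 and 386 in mutant and at 302, 292 and 286 in WT hearts. Every mutant value again exceeded every WT value. The WT libraries lay closer together than read counting alone would give, with an SD of 8.08 beside a counting SD of 17.1. Their small spread is therefore no measure of how well the value repeats. Means of 378 ± 32.3 and 293 ± 8.08 (SD, n = 3) gave a log2 change of 0.36 (SE 0.108), with an unadjusted p of 0.00469 and an adjusted p of 0.466 by limma. The 95% intervals of the mutant level were 1.11 to 1.52 times WT for *bmp16*, 1.07 to 1.45 for *bmp5* and 1.09 to 1.51 for *bmp6*.

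*bmp7b* (ENSDARG00000063230, chromosome 23, 6487442 to 6588127) stood at 53, 64 and 92 in mutant and at 55, 50 and 67 in WT hearts. Mutant replicate 3 was the highest of the 6 and the groups overlapped (log2 change 0.25, SE 0.235, limma adjusted p = 0.922). *bmp7a* (ENSDARG00000018260, chromosome 11, 7097959 to 7137701), whose product pairs with Bmp2b in the early zebrafish embryo, stood at 8, 2 and 12 in mutant and at 10, 14 and 9 in WT hearts. Its 95% interval, from -2.01 to 0.52 on the log2 scale, does not separate a large decrease from an increase at this depth (limma, adjusted p = 0.883).

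Summed over the 9 ligands other than *BMP10*, the reads were 3074, 3036 and 2991 in mutant and 2676, 2375 and 2582 in WT hearts, or 3034 ± 41.5 against 2544 ± 154 (SD, n = 3). Every mutant library was above every WT library. The genes with most reads, *bmp4*, *bmp5* and *bmp16*, dominate this sum. It holds the values of *bmp16*, *bmp5* and *bmp6*, whose separate groups are given above, so its separation largely restates theirs and is no independent support. The sum was not tested. Including *BMP10* the totals were 3145 ± 54.4 and 2778 ± 158, still without overlap. *BMP10* itself gave 3.53% ± 0.475 of these reads in mutant and 8.42% ± 0.848 in WT hearts (SD, n = 3). This share is of reads and not of molecules. Both the *BMP10* values, which had been called before, and the higher sum of the other 9 enter it.

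For *bmp16*, *bmp5* and *bmp6*, none of them called, every mutant value was above every WT value. These ligands were measured in pools in which the sums of some marker lists also separated the groups. Of 15 marker lists, the summed level was higher in every mutant library for 2, the endocardial list given above and the atrioventricular canal, lower in every mutant library for 2, and overlapping for 11. For single tested genes the groups did not overlap in 11.1%, and no such share was computed for sums. No gene of these lists was called. No listed gene that was in the table was at 0 in all libraries. Of the 7 atrioventricular canal markers, 6 had a log2 change above 0 and 1 below. An unadjusted p under 0.05 by limma was seen for 5 of the 7, beside 6.6% of all tested genes. The 7 include *bmp4*, and the 6 without it summed to 5726 to 6101 in mutant and 4374 to 5191 in WT hearts. The sums that were lower were those of the 5 epicardial markers, at 520 to 671 against 681 to 876, and of the 6 liver and yolk markers, at 3345 to 5886 against 6017 to 9288. All 5 epicardial markers and the 4 tested liver and yolk markers had log2 changes below 0. The unadjusted p by limma was under 0.05 for 2 of the 5 and for all 4. Among the overlapping sums, the hatching gland list had the largest median log2 change of the 15 lists, 1.24, with all 4 rows above 0 and at an unadjusted p under 0.05. Its sums were 1733, 3383 and 1531 in mutant and 585, 2502 and 448 in WT hearts, so they overlapped through WT replicate 2. The part of these cell types and tissues in the ligand values was not tested. Scaled to the endocardial sum, the log2 changes of *bmp16*, *bmp5* and *bmp6* were 0.18, 0.12 and 0.16, against the median of -0.20 for all genes under that scaling. Scaled to the cardiomyocyte sum they were 0.40, 0.34 and 0.38.

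The rest of the pathway was read from lists of receptors, Smads and responsive genes, antagonists and proteases, in which no gene was called. Of 12 tested receptor and co-receptor rows, 8 had a log2 change above 0 and 4 below, with a median of 0.06 (limma, smallest adjusted p = 0.753), and 1 had an unadjusted p under 0.05. The type II receptor gene *bmpr2b* stood at 803, 889 and 901 in mutant and at 763, 759 and 737 in WT hearts (log2 change 0.20, limma adjusted p = 0.753). The type I receptor gene *bmpr1aa* stood at 724 ± 39.4 against 679 ± 69.2, and *acvr1l*, another type I receptor gene, at 566 ± 33.1 against 500 ± 54.5 (SD, n = 3). The Alk1 gene *acvrl1*, named after its values were seen for the ligand it is known to bind, stood at 94, 109 and 97 in mutant and at 75, 81 and 91 in WT hearts. Its log2 change was 0.28 (limma, adjusted p = 0.842).

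Among 20 tested rows of Smads and BMP-responsive genes, 15 had a log2 change above 0 and 5 below, with a median of 0.12. Every mutant value was above every WT value in 5 rows and below in 1, beside 5.57% and 5.53% of all tested genes. An unadjusted p under 0.05 was seen for 7 rows, beside 6.6% of all tested genes, but none passed over all genes (limma, smallest adjusted p = 0.338). The row below was *id2b*, a gene of the Id family (named after its values were seen), at 583, 605 and 569 in mutant and 616, 699 and 610 in WT hearts. The inhibitory Smad gene *smad7* stood at 321, 309 and 345 in mutant and at 257, 248 and 214 in WT hearts (log2 change 0.44, SE 0.116, limma adjusted p = 0.338). The other inhibitory Smad genes gave 1318 ± 78 against 1149 ± 42.5 for *smad6b* and 940 ± 30.3 against 874 ± 97.8 for *smad6a* (SD, n = 3). *bambib*, which encodes a pseudoreceptor that dampens BMP and TGF-beta signals, stood at 264, 274 and 235 in mutant and at 215, 184 and 208 in WT hearts (log2 change 0.35, limma adjusted p = 0.581). Also named after their values were seen, *msx1b* (log2 change 0.69), *msx3* (0.43), *tbx2a* (0.31) and *tbx2b* (0.22) were higher in mutant hearts. Their unadjusted p-values by limma ran from 0.0144 to 0.0432, and the groups overlapped for *msx1b* and *msx3*. In the other direction, *msx1a* (-0.18) and *msx2b* (-0.13) overlapped between groups. *id1*, a direct BMP target (named after its values were seen), stood at 349 ± 36.5 against 344 ± 70.7, and the groups overlapped. A row of the same symbol overlaps it on the opposite strand and was too low to be tested, and since the use of strand is not known, their reads cannot be told apart.

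Of 15 tested rows of secreted antagonists and modulators, 6 had a log2 change above 0 and 9 below, with a median of -0.15, and 1 had an unadjusted p under 0.05 (limma, smallest adjusted p = 0.286). That gene was *nog2*, which encodes a Noggin protein that binds and blocks BMPs. It stood at 489, 518 and 435 in mutant and at 371, 296 and 370 in WT hearts, without overlap (log2 change 0.48, SE 0.117, limma adjusted p = 0.286). Every mutant value was above every WT value in 1 of the 15 rows and below in 2, beside 5.57% and 5.53% of all tested genes. The BMP antagonist gene *grem2a*, 1 of the 2 below, stood at 7, 7 and 3 in mutant and at 11, 10 and 13 in WT hearts. It entered the test only through the WT libraries. The other, *sostdc1a* (named after its values were seen), stood at 18, 17 and 18 in mutant and at 20, 26 and 34 in WT hearts (log2 change -0.54, limma adjusted p = 0.846). The follistatin-like gene *fstl1b* (4930 ± 310 against 4843 ± 393) and the BMP-binding *crim1* (998 ± 77 against 939 ± 69.9) overlapped between groups.

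The ligand-processing proteases numbered 8 tested genes, 5 above 0 and 3 below, with a median of 0.08 and 1 gene with an unadjusted p under 0.05 (limma, smallest adjusted p = 0.574). *furina*, a proprotein convertase gene, stood at 1090 ± 69.5 against 1001 ± 31.2 (SD, n = 3), and *pcsk6*, another convertase gene, at 73, 72 and 69 in mutant and 56, 59 and 60 in WT hearts. The tolloid-type protease genes gave 380 ± 45 against 356 ± 35.2 for *bmp1a* and 196 ± 32.4 against 261 ± 35 for *tll1*, whose log2 change was -0.42 (limma, adjusted p = 0.574).

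**Figure D4:**
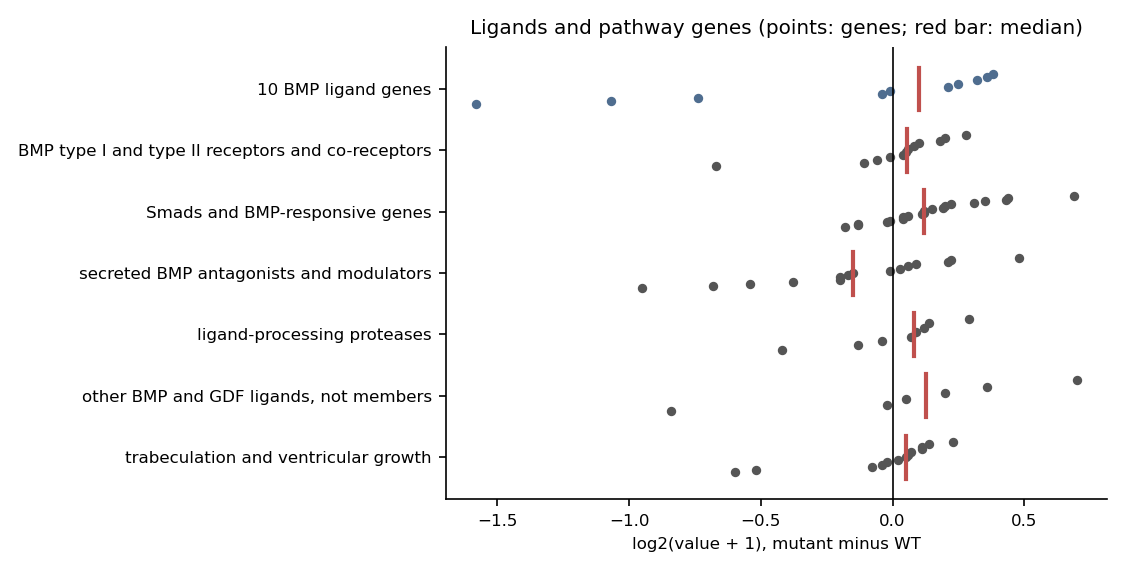
Difference between mutant and WT hearts in log2(value + 1) for the 10 ligand genes (top) and for the tested genes of 6 pathway lists (points), with each list's median (vertical bar). The medians lie between -0.15 for the antagonists and 0.12 for the Smads and the other ligands, and no gene outside the top line was called.

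Other BMP and GDF ligand genes of the table were mostly at low values, and 6 of 16 were tested, 4 above 0 and 2 below, with a median of 0.12 (limma, smallest adjusted p = 0.519). *bmp3*, which encodes a divergent BMP, stood at 767, 878 and 767 in mutant and at 747, 598 and 544 in WT hearts. Its groups did not overlap, and its log2 change was 0.36 (SE 0.116, unadjusted p = 0.00735, limma adjusted p = 0.519). *gdf6a* (152 ± 22 against 136 ± 38.2) and *gdf11* (15.7 ± 1.53 against 10.3 ± 6.66) overlapped between groups. *gdf2*, the gene of the other Alk1 ligand BMP9 (named after its values were seen), stood at 5, 1 and 0 in mutant and at 0, 1 and 5 in WT hearts and was not tested.

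A list of 13 genes of trabeculation and ventricular growth, the setting in which BMP10 is best known, had 8 changes above 0 and 5 below, with a median of 0.05. None was called (limma, smallest adjusted p = 0.411), and 1 had an unadjusted p under 0.05. That gene, the ventricular repressor gene *hey2*, stood at 79, 73 and 99 in mutant and at 139, 118 and 123 in WT hearts, without overlap. The neuregulin receptor gene *erbb3b* stood at 25.3 ± 6.03 against 38.3 ± 17.4. *nppa*, a natriuretic peptide gene of the working myocardium, stood at 12281 ± 269 against 11890 ± 740, and the T-box gene *tbx20* at 2215 ± 73.9 against 2196 ± 271 (SD, n = 3).

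The genes whose pattern was most like that of *BMP10* were ranked among the 10182 tested genes that had a mean of at least 50, leaving out those named only by a clone. The measure was the root mean square difference of log2(value + 1), centred on each gene's own mean, over the 6 libraries. The lowest differences were 0.171 for *map3k15*, a kinase gene, 0.175 for the protocadherin gene *pcdh1gc5*, 0.214 for *phlda2*, a pleckstrin-domain gene, 0.220 for *COLEC10*, a collectin gene, and 0.222 for *sema5a*, a semaphorin gene. The median over all ranked genes was 0.578. *map3k15* stood at 165, 134 and 111 in mutant and at 248, 272 and 223 in WT hearts. *phlda2* was the only called gene of the 5 (limma, adjusted p = 0.00579), at 374 ± 8.72 against 640 ± 45.7, and the adjusted p of *map3k15* was 0.0785. Since the measure uses the same values as the test, these genes are lower in the mutant libraries by construction.

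**Figure D5:**
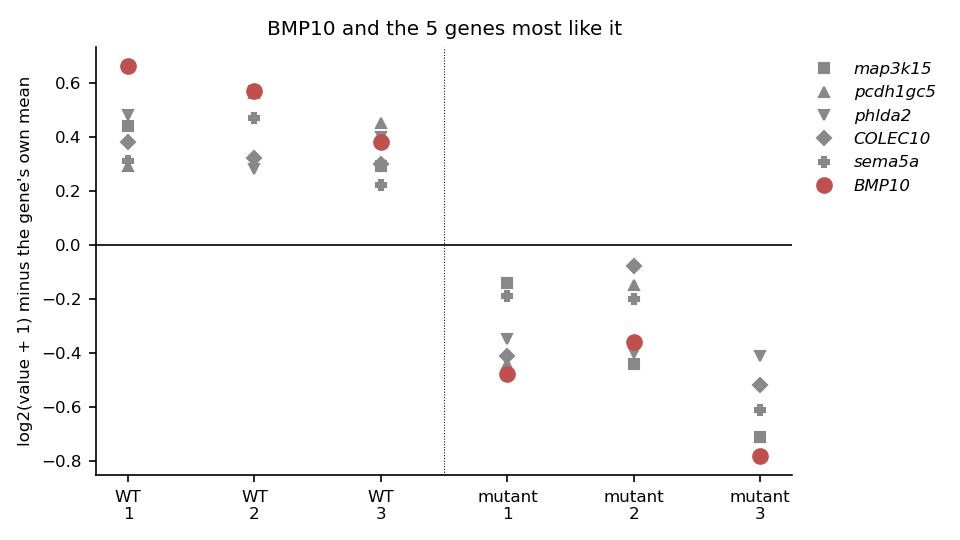
Values of log2(value + 1) minus each gene's own mean over 6 libraries, for *BMP10* (large circles) and the 5 genes most like it. All 6 genes lie above 0 in the 3 WT libraries and below 0 in the 3 mutant libraries, and *BMP10* runs from 0.38 to 0.66 in WT and from -0.78 to -0.36 in mutant.

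The 10 ligand genes lie on 9 chromosomes, with *bmp2a* and *bmp4* both on chromosome 17, and none is on chromosome 22, where *wwtr1* lies. The table's KEGG column assigns 6 of them to the TGF-beta signalling pathway, and *BMP10*, *bmp10*, *bmp2a* and *bmp16* are the 4 without that term. A pathway list taken from that column would leave *BMP10* out.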

How the data were processed

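Total RNA from 6 pools of hearts (6.5 ng each) was made into libraries and sequenced as single reads of 75 nt, with a minimum of 30 M reads each, per the labels' protocols. Per the submitters' processing notes, STAR 2.4.0a, Subread and its featureCounts 1.4.5-p1 were used with danRer10 (GRCz10). The sources used here do not give the counting options, the use of strand or the scaling method. The deposited values are a score: read counts scaled by the authors and rounded. This was read from the values: between 1 and 100, mutant replicate 2 skips 7 whole numbers, mutant replicate 3 skips 5 and WT replicate 2 skips 12. Whole reads were not recovered, so no count model was run.

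Genes at 10 or more in 3 or more libraries were tested with limma 3.58.1 in R 4.3.3, on log2(value + 1) with a variance trend. The script was tested on simulated data. P-values set the difference between groups against the variation between pools, which limma moderates towards a trend over all genes. The labels number replicates 1 to 3 in each group, and the test does not pair them. Alternatives were other pseudocounts (0.5 and 5), value filters, scalings, library weights, no trend, a replicate block, an adjusted p under 0.1 and each library left out.

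Members and gene lists were chosen with earlier results of these data known, in which *BMP10* had been called. Named genes are every ligand, *wwtr1*, from each of 6 pathway lists the called genes or, with fewer than 2, the 2 with the highest mean and the 2 with the lowest p, and the 5 genes most like *BMP10*. Other pathway genes and neighbours are marked as named after their values were seen.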

Additional observations from a re-analysis of the deposited data

How the results depend on the processing

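*BMP10* kept its direction under all 18 alternatives, with log2 changes from -1.27 to -0.95, and passed under 14. Since every mutant value was below every WT value, changes of pseudocount, filter, weights or trend, the block and left-out libraries could not reverse that direction. The scalings to marker sums among the 18 were added after the data had been seen. Without a variance trend the *BMP10* log2 change was -1.07 (limma, adjusted p = 0.373). Under that fit 0 of the 10 ligands and 0 genes were called, and 1176 genes and 3 ligands had an unadjusted p under 0.05. Leaving out each library in turn gave -1.16 to -0.95 for *BMP10*, 0 to 1 called ligands, 5 to 46 called genes (46 without WT replicate 2, 11 without WT replicate 1) and -1.20 to -0.91 for the log2 ratio of *BMP10* to *bmp10*. In the 3 of these runs with 0 called ligands, those that left out mutant replicate 1, mutant replicate 3 and WT replicate 1, 4, 5 and 5 ligands had an unadjusted p under 0.05. Against 7 called genes as reported, 68 were called with scaling to the library total without ribosomal RNA, 4 and 24 with scaling to the cardiomyocyte and endocardial markers, and 20 at an adjusted p under 0.1. The direction of *bmp2b* and *bmp10* was not stable: *bmp2b* was at 0.00 with quantile normalisation, 0.01 with cardiomyocyte scaling and -0.16 to 0.08 with a library left out, and *bmp10* at -0.17 to 0.10. The causes were not tested. The other 7 ligands kept their direction and stayed uncalled under each alternative that could test them.

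The replicate block gave 15 called genes and a *BMP10* change of -1.07 (limma, adjusted p = 0.013), and changed no ligand's call. Same-numbered libraries did not deviate together (r from -0.0241 to 0.0449), and not every library correlated best with its own number, so the numbers were not taken as pairs. Depth limits *bmp2a* and *bmp7a*, which fell below the filter of 50.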

Other observations

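The nearest gene to *bmp2a* is another ligand gene of the superfamily, *gdf3*, which acts with Nodal signals in the early zebrafish embryo. It lies 7.91 kb away on chromosome 17, from 4081036 to 4093820 (GRCz10). It stood at 1, 0 and 0 in mutant and at 4, 3 and 5 in WT hearts, and *bmp2a* at 0, 7 and 7 against 11, 10 and 12. Both had every mutant value below every WT value, at values so low that *gdf3* was not tested. The separation of *bmp2a* follows in part from the value filter, which it passed only through its WT libraries. Among all tested genes, 5.53% had every mutant value below every WT value. A joint decrease of these neighbouring genes was not tested. The next genes within 100 kb overlapped between groups, with log2 changes of 0.02 for *napba* and -0.08 for *mcm8*. This neighbour was named after its values were seen.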
